A study of Drosophila melanogaster with 4 samples.

Results

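The transcripts described here come from the pericentric heterochromatin of 3 chromosome arms of Drosophila melanogaster, as sequenced from testes. Members are all transcript models that lie wholly within 2L from 22000000 to 23513712, 3L from 22900000 to 28110227 or 3R from 1 to 4200000 (Release 6 coordinates, counted from 1). The rule chose 284 isoforms at 101 loci, of 40180 isoforms at 9100 loci in the whole catalogue, which is 0.707% of the isoforms. It uses position alone, and no measured value entered it. The remaining 26947 isoforms of the same arms, at 5802 loci, serve as the comparison. A locus is a set of isoforms on 1 strand, as the authors grouped them.

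Pericentric heterochromatin is the compact, repeat-rich chromatin next to the centromere. It is packaged with histone H3 methylated on lysine 9 and with the HP1 protein, and silences many euchromatic genes that are moved into it. In Drosophila it nevertheless holds genes that need this setting for normal expression, such as lt and rl, and introns there can be filled with transposon remnants. Long reads can span the junctions of such introns without resolving the repeats inside them.

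PacBio Iso-Seq, which reads polyadenylated transcripts as full-length cDNA, was applied to testes in 4 samples. Control males carried bamGAL4 alone (2 samples), and knockdown males carried bamGAL4 together with KmgRNAi (2 samples). The bamGAL4 driver acts in spermatogonia, so both groups carry it and the RNAi reaches germ cells from that stage on, not the somatic cells of the testis. Each sample pooled 150 pairs of testes from males 0 to 2 days old, raised at 29 °C after crosses of 3 days at 25 °C.

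The authors deposited 1 merged set of transcript structures. Of its 375136 lines, 0 name a sample or condition and 0 carry a score, so neither a depth per sample nor a comparison of control with knockdown can be given, and every value describes the 4 libraries pooled. Over the whole catalogue, isoforms were found for 10 of 10 male germline marker genes and for 4 of 5 cyst and hub cell genes. They were found for 0 of 5 genes of egg production in females. Loci, genes and isoforms are not replicates, and each p-value and interval below covers counting error over loci or genes of this single catalogue.

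Loci were sparse per megabase in the pericentric regions. There were 34 loci (156 isoforms) on 2L, 49 loci (94 isoforms) on 3L and 18 loci (34 isoforms) on 3R. Per megabase that is 22.5 loci on 2L, 9.40 on 3L and 4.29 on 3R, against 79.7, 77.6 and 81.6 over the remainder of each arm. Annotated genes are also few there, with 92 RefSeq protein-coding genes in 10.9 Mb. The remainder holds 8700 such genes over 22.0 Mb of 2L, 22.9 Mb of 3L and 27.9 Mb of 3R. The part of gene content in the lower number of loci was not tested. At the edges, the first locus inside 2L was G2648 (22004623 to 22014999, 3 isoforms, no coding sequence, CDS), and the next locus outside was that of CG2528. Inside the 3L edge came G8206, with 1 unspliced isoform, and outside it slif, an amino acid transporter gene. At the 3R edge G8431 lay inside, with 2 isoforms and a CDS of 690 nt. The beta-Man locus lay across that edge, and its 3 isoforms that crossed it were counted with the comparison loci.

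Of the 284 isoforms, 189 (66.5%) could be given the name of a RefSeq gene. They belonged to 57 genes: 49 protein-coding, 5 long non-coding, 1 antisense and 2 pseudogenes. RefSeq places 92 protein-coding genes in the regions, so that 49 of 92 (53.3%, 95% exact binomial interval 42.6 to 63.7) were named, against 5427 of 8700 (62.4%) elsewhere on the arms. This difference did not pass the test (odds ratio 0.687, interval 0.446 to 1.06, adjusted exact p = 0.0833). Without regard to strand, 63 of 92 genes (68.5%) held at least 50% of an isoform's span, against 70.8% (adjusted exact p = 0.645). An isoform overlapped 68 of 92 by any length (73.9%), against 82.1% (adjusted exact p = 0.0549). Neither looser count was tested arm by arm. On 2L 25 of 37 genes were named, on 3L 18 of 42 and on 3R 6 of 13, against 61.1%, 61.9% and 63.7% of the remaining genes of each arm. Of the 3 arms taken singly, 3L passed the test (adjusted exact p = 0.0210) and 3R, with a drop of similar size, did not (adjusted exact p = 0.396). All comparisons are two-sided Fisher's exact tests across loci or genes. An adjusted exact p is the Benjamini-Hochberg value of such a test over 8 comparisons, or over as many of them as a named alternative allows (7 for RefSeq genes in place of loci and for loci of protein-coding genes). The threshold is 0.05. A set of 9 comparisons added after the data were seen was adjusted over its own 9. The alternative of loci of protein-coding genes was also added then, and was adjusted over its own 7.

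The 8 comparisons are drawn as shares with their intervals in the plot of locus structure. The pericentric share was above the comparison for long introns and below it for the other 7 measures.

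**Figure D1:**
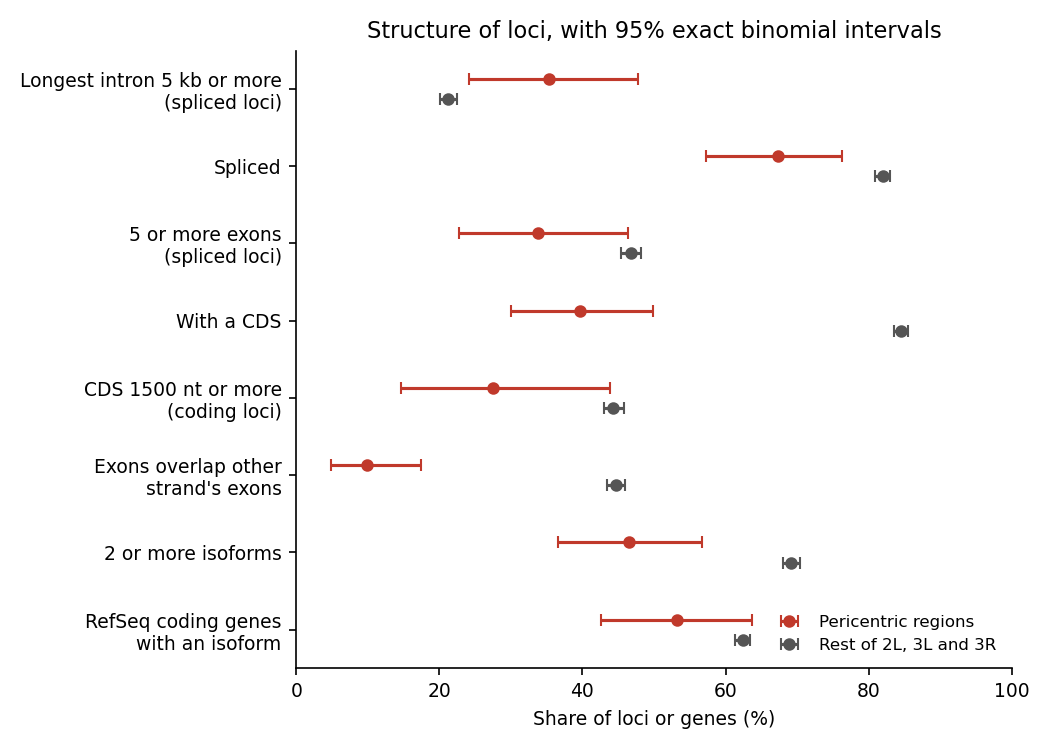
Share of loci (of RefSeq protein-coding genes in the last row) with each feature, in percent, for the pericentric regions (red) and for the rest of 2L, 3L and 3R (grey). Points are shares and bars are 95% exact binomial intervals. The widest gaps are in loci with a CDS (39.6% against 84.5%) and in exon overlap with the other strand (9.90% against 44.7%).

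Long introns were more frequent in the pericentric loci. Of 68 spliced loci, 24 (35.3%, interval 24.1 to 47.8) had a longest intron of at least 5 kb, against 1012 of 4755 (21.3%, interval 20.1 to 22.5) elsewhere (odds ratio 2.02, interval 1.17 to 3.41, adjusted exact p = 0.0168). With RefSeq genes in place of loci the gap was wider, with 17 of 48 genes against 630 of 4971 (12.7%; adjusted exact p = 0.000124). The median longest intron was 663.5 bp against 482 bp, and the upper quartile was 8632 bp against 3729.5 bp. The lower quartiles were 67 and 80 bp, in the opposite order, so the difference lay in the upper part of the distribution. On each arm alone the share was higher (37.9% on 2L, 35.7% on 3L, 27.3% on 3R), but with 29, 28 and 11 loci no single arm passed the test, with adjusted exact p = 0.105, 0.104 and 0.708.

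**Figure D2:**
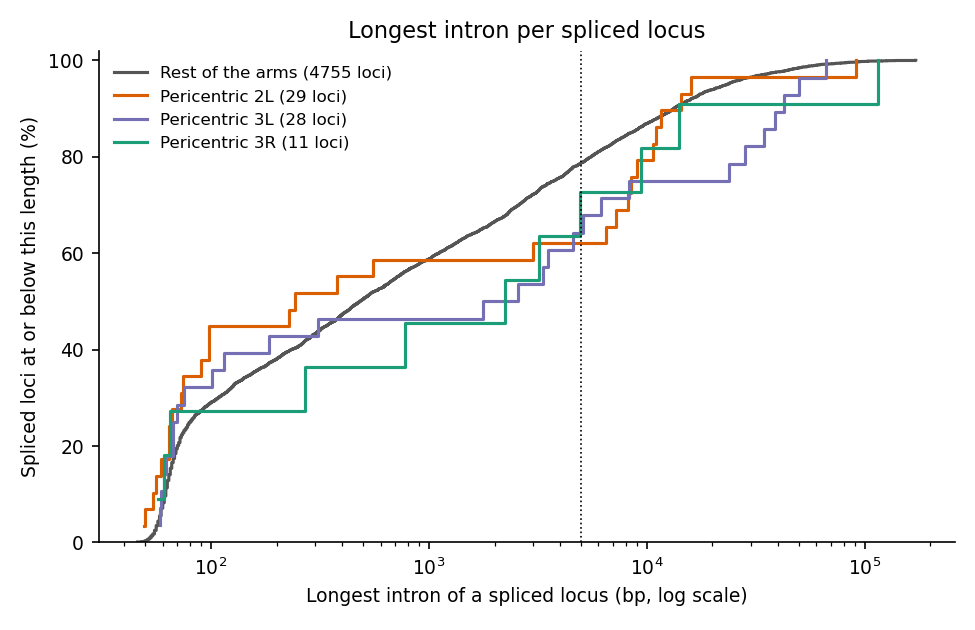
Percent of spliced loci (vertical axis) whose longest intron is at or below a length in bp (horizontal axis, log scale), for pericentric 2L, 3L and 3R and for the rest of the arms. The dotted line marks 5 kb. All 3 pericentric curves lie below the grey curve there, and above 20 kb lie 9 of 68 pericentric loci against 289 of 4755.

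Among 318 distinct pericentric introns, 69 (21.7%) were at least 5 kb long and 22 (6.92%) at least 20 kb, against 8.09% and 1.88% of 28669 introns elsewhere. Distinct introns include alternative junctions of the same locus, so they are not independent units. The 22 of at least 20 kb lay at 9 loci, and all 4 of those on 3R lay at the Parp1 locus. The introns of at least 20 kb were uneven over the arms, with 1 of 158 on 2L (0.633%), 17 of 114 on 3L (14.9%) and 4 of 46 on 3R (8.70%). On 2L this share was below the 1.88% elsewhere. These shares of introns were not tested. Internal exons had a median of 250 bp against 247 bp, so exon size differed little where intron size did. In pericentric loci with an intron of at least 5 kb, carried by an isoform of at least 3 exons, the longest intron was the first one in 5 of 19 (26.3%, interval 9.15 to 51.2). Elsewhere it was the first in 491 of 956 (51.4%, interval 48.1 to 54.6). The odds ratio was 0.339 (interval 0.0947 to 1.005, adjusted exact p = 0.0471 over 9 comparisons added after the data were seen). That interval includes 1, so the call is borderline.

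The longest intron lay in Parp1, the gene of poly(ADP-ribose) polymerase, an enzyme of DNA repair and chromatin opening (3R, 3461351 to 3587054, minus strand). Its 5 isoforms had 4 to 6 exons, and the locus held 3138 bp of exon in a span of 125705 bp. In 4 isoforms the intron from 3523948 to 3584979 measured 61032 bp. The other isoform skipped the exon beyond this intron and joined across 115501 bp, from 3469479 to 3584979. Of the 5 isoforms, 4 ended within 10 bp of the annotated 3' end, and the nearest 5' end lay 1 bp outside the annotated one.

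AGO3, which encodes a PIWI-clade Argonaute of the germline piRNA pathway, came after Parp1 and the Tif-IA locus (3L, 23554593 to 23689640, plus strand). Isoforms confined to AGO3 had introns of 40112 or 55102 bp. A pair of isoforms left out the AGO3 terminal exon, crossed 66529 bp and ended in Spf30, a splicing factor gene downstream (gene start 23715023). Spf30 also had an isoform of its own, from 23715053 to 23716487, with 3 exons and a CDS of 576 nt. Isoforms that crossed a long intron from a distant start were seen at other loci too. At the Tif-IA locus, 1 isoform with 7 exons ran from 22143851 to 22258263 on 2L across an intron of 91398 bp. It began in the span of CG42748 and shared the 3' end of Tif-IA, the gene of an initiation factor for RNA polymerase I. At CkIIalpha, the catalytic subunit gene of casein kinase 2, an isoform of 2 exons began at 23059367 on 3L, crossed 42470 bp and used the acceptor next to 23102121 that 6 other isoforms used. That isoform began upstream of the CkIIalpha gene (start 23097072), outside every RefSeq protein-coding gene. Each of these 2 long introns at Tif-IA and CkIIalpha was carried by 1 isoform, and what produced them was not tested. The share of loci with an intron of at least 5 kb kept its call when introns carried by a single isoform were left out (12 of 33 against 519 of 3309, adjusted exact p = 0.00523).

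The other loci with the longest introns were l(3)80Fg (49911 bp), G8322 (38877 bp), G8263 (34492 bp), lovit (28141 bp), l(3)80Fj (23834 bp) and Ir40a (15969 bp). In l(3)80Fg, 6 of 7 isoforms ended at the annotated 3' end, and 3 of them began within 417 bp of the annotated 5' end. The others of these began at least 79270 bp inside the gene. G8322 and G8263 had 2 exons each and no name. G8263 held 396 bp of exon and lay in the span of Snap25, a gene of synaptic vesicle fusion whose span is 225026 bp. Ir40a, the gene of a humidity receptor of the antenna, was the 1 gene of these 6 on 2L and the 1 with a CDS, of 2199 nt in a single isoform.

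**Figure D3:**
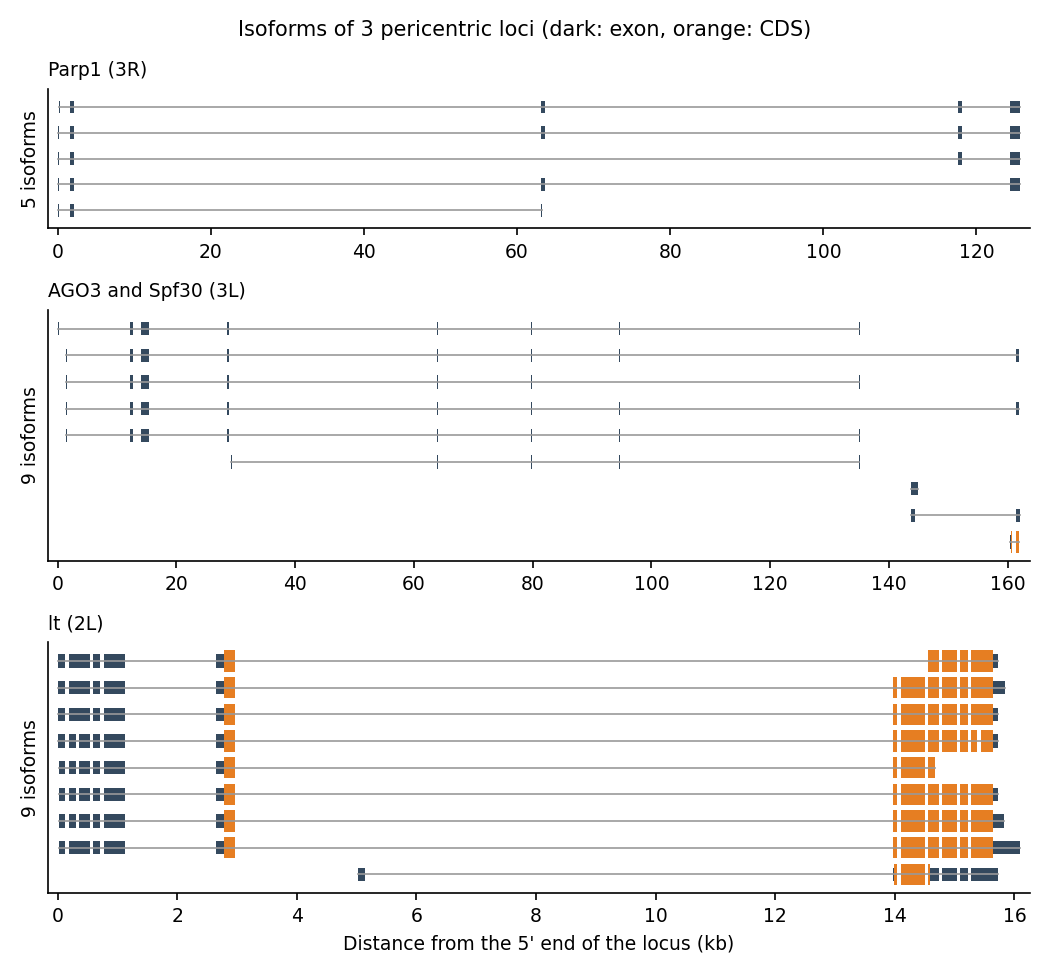
Exons (dark) and CDS (orange) of every isoform at the Parp1, AGO3 with Spf30, and lt loci, each row 1 isoform, against the distance in kb from the 5' end of the locus. Very short exons are drawn at a minimum width. Parp1 and AGO3 isoforms show no CDS, while all 9 lt isoforms do.

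Fewer pericentric loci were spliced, and spliced ones had fewer exons. A spliced isoform was present at 68 of 101 loci (67.3%, interval 57.3 to 76.3), against 4755 of 5802 (82.0%; odds ratio 0.454, adjusted exact p = 0.000813). At least 5 exons were reached by 23 of 68 spliced loci (33.8%) against 2226 of 4755 (46.8%; odds ratio 0.581, adjusted exact p = 0.0425), with medians of 3 and 4 exons. Both calls were lost when RefSeq genes were counted in place of loci. Spliced isoforms were then found for 48 of 57 named genes (84.2%) against 85.8%, and 5 exons for 19 of 48 (39.6%) against 42.8%. On 2L the spliced share was 85.3% against 81.3%, in the opposite direction.

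The highest exon numbers were those of lt with 13, alpha-Cat with 12, l(3)80Fg with 11, and Marf1 and Cht10 with 9 each. The lt gene encodes a subunit of the complex that tethers vesicles to the lysosome, and is a classical gene of 2L heterochromatin (22924795 to 22943135, plus strand). Its 9 isoforms all had a CDS, and 8 began within 22 bp of the annotated start. An intron of 11008 bp, from 22927766 to 22938773, was present in 7 of them. In these 8 isoforms the CDS began at 22927578, downstream of several exons, and reached 1587 nt in 5. alpha-Cat, which links cadherin to actin at adherens junctions, had 4 isoforms with 6 to 12 exons on 3L and no CDS in any.

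A group of 27 loci (26.7%, interval 18.4 to 36.5) held nothing but 1 unspliced isoform. Elsewhere 757 of 5802 loci did (13.0%; adjusted exact p = 0.000419). This comparison is among the 9 added after the data were seen. The plot of exon length against span shows these loci and other short ones along the diagonal.

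**Figure D4:**
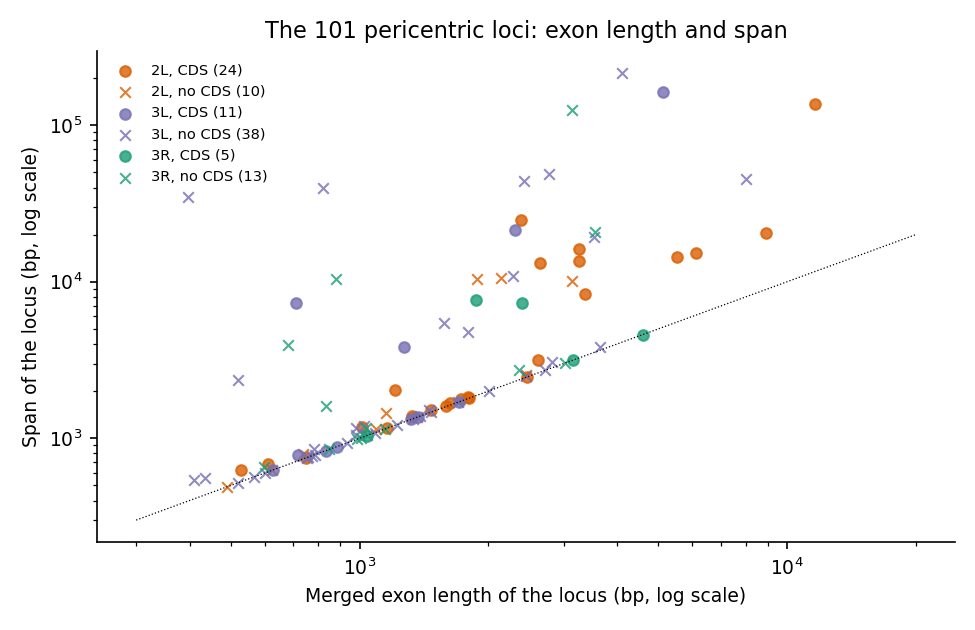
Each of the 101 pericentric loci by its merged exon length (horizontal, bp) and its span (vertical, bp), both on log scales, coloured by arm, with circles for loci with a CDS and crosses for loci without. The dotted diagonal marks a span equal to exon length. Loci far above it include Parp1 on 3R, with 3138 bp of exon in 125705 bp, and the Tif-IA locus on 2L, with 11622 bp in 136428 bp.

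The widest difference, in percentage points, was in coding sequence (CDS). The CDS entries are the authors' prediction, whose settings are not given in the files, and genes of known proteins such as RpL15 and CkIIalpha have none. A missing entry therefore does not show that a transcript is non-coding, and whether the prediction worked evenly along the arms cannot be told from the file. A CDS, as predicted by the authors, was given for 40 of 101 pericentric loci (39.6%, interval 30.0 to 49.8) and for 4905 of 5802 others (84.5%, interval 83.6 to 85.5; odds ratio 0.120, adjusted exact p = 3.34e-23). Restricting to loci named for a protein-coding gene left 26 of 48 (54.2%) against 4257 of 4437 (95.9%; adjusted exact p = 5.29e-17). The gap is therefore also present among loci of known coding genes. It was not even over the arms, since 24 of 34 loci on 2L (70.6%), 11 of 49 on 3L (22.4%) and 5 of 18 on 3R (27.8%) had a CDS. On 2L alone the difference from the arm's remainder did not pass the test (adjusted exact p = 0.105).

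The contrast between arms was tested within the regions, over spliced loci named for a protein-coding gene. On 2L 19 of 21 of these had a CDS (90.5%, interval 69.6 to 98.8), and on 3L and 3R together 6 of 23 (26.1%, interval 10.2 to 48.4). The odds ratio was 24.3 (interval 4.08 to 276.8, adjusted exact p = 3.00e-05, among the comparisons added after the data were seen). Counted over spliced isoforms, 106 of 135 on 2L (78.5%), 9 of 64 on 3L (14.1%) and 4 of 25 on 3R (16.0%) had a CDS, against 94.3% of 23217 elsewhere.

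Position along the arm showed an abrupt change on 3L and 3R. In the 0.5 Mb before the 3L edge 158 of 164 spliced isoforms had a CDS (96.3%), and in the first 0.5 Mb inside it 5 of 27 did (18.5%). On 3R the corresponding values were 251 of 260 (96.5%) and 4 of 11 (36.4%), and farther in none of 14 had one. On 2L the share was already 75.3% in the 0.5 Mb outside the edge, and it was 74.4%, 81.8% and 91.3% in the successive bins inside. The 3L and 3R steps coincide with the edges set by the rule only as far as bins of this width can show. What produced the steps was not tested.

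**Figure D5:**
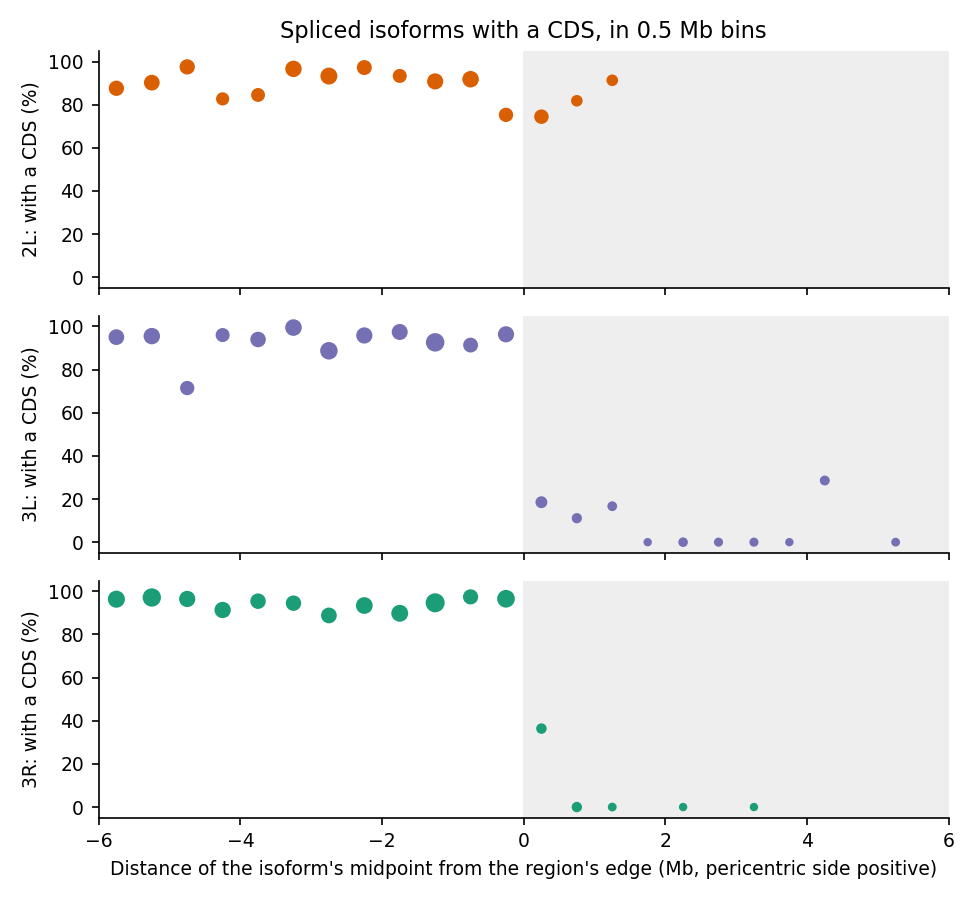
Percent of spliced isoforms with a CDS (vertical) in 0.5 Mb bins by the distance of the isoform's midpoint from the region's edge (horizontal, Mb, shaded on the pericentric side), for 2L, 3L and 3R. Larger points hold more isoforms. On 3L the share goes from 96.3% to 18.5% across the edge and on 3R from 96.5% to 36.4%, while on 2L it goes from 75.3% to 74.4%.

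Of the 46 protein-coding genes with a named spliced isoform, 21 had no CDS in any isoform. Several of them encode proteins that every cell needs. RpL15, a gene of the large ribosomal subunit, had 5 isoforms that all began within 16 bp of the annotated start and ended within 12 bp of the annotated end or at it, yet no CDS was listed. A CDS was also missing for CkIIalpha (7 named isoforms, the nearest starting 2400 bp inside the gene), for UQCR-11 and ND-MLRQ, which encode respiratory chain subunits (1 and 2 isoforms, ending 4874 and 4332 bp short of the annotated end), and for Tim17b, a subunit gene of the mitochondrial import channel (1 isoform). Others were Parp1 (5 isoforms), AGO3 (7), l(3)80Fg (7), CG41099 (6), Pzl (6), alpha-Cat (4) and Alg-2, the gene of a calcium-binding protein (1). On 2L the genes without a CDS were Nubpl, cta, Grl40a and CG34173. Of these cta encodes a G protein alpha subunit that acts in gastrulation, and its 1 isoform of 6 exons began 15 bp from the annotated start.

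Named coding genes with a CDS on 3L and 3R were few. Near the 3L edge were BoYb, a Tudor-domain gene of the piRNA pathway (1527 nt), and CG32461 (759 nt). Farther in were Spf30 (576 nt), CG40045 (507 nt) and vtd, the cohesin subunit gene, whose 2 isoforms of 5 and 8 exons carried 300 nt each. On 3R Gfat1, which encodes the entry enzyme of hexosamine synthesis, had CDS of 2058 and 2022 nt in 2 isoforms of 8 exons. It lies next to the 3R edge (4126442 to 4137882).

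Over loci with a CDS, the predicted CDS was shorter. The longest CDS of a locus had a median of 787.5 nt against 1344 nt, and 11 of 40 coding loci (27.5%) reached 1500 nt against 2175 of 4905 (44.3%; odds ratio 0.476, adjusted exact p = 0.0425). This call was lost with RefSeq genes as the unit (37.0% of 27 against 40.6%, adjusted exact p = 0.845). It was also lost in loci named for protein-coding genes, an alternative added after the data were seen (42.3% of 26 against 47.1%, adjusted exact p = 0.812). On 2L alone 9 of 24 coding loci reached 1500 nt (37.5%) against 42.5% (adjusted exact p = 0.852). On 3L 1 of 11 did against 45.5% (adjusted exact p = 0.0210), and on 3R 1 of 5 against 44.9% (adjusted exact p = 0.517). The longest CDS were all on 2L. Cht10, a chitinase gene, reached 5517 nt in 2 of 10 isoforms, and Marf1, an RNA-binding regulator of meiosis in oocytes, had 3819 nt in 4 of 5. The Tif-IA locus reached 3489 nt, in an isoform of the CG42748 span. The locus of tio, a zinc-finger gene, reached 3075 nt, and Slmap 2694 nt.

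Antisense overlap was rare. Exons of 10 of 101 pericentric loci (9.90%, interval 4.85 to 17.5) overlapped exons of a locus on the other strand, against 2592 of 5802 (44.7%, interval 43.4 to 46.0; odds ratio 0.136, interval 0.0630 to 0.263, adjusted exact p = 2.27e-13). The share was 11.8% on 2L, 12.2% on 3L and 0 of 18 on 3R, which counting error alone allows to be up to 3 of 18. It was below the rest of the arm on each (adjusted exact p = 0.00118, 8.71e-06 and 5.98e-05). Loci with a close neighbour on the other strand were also fewer, a class that includes the overlapping loci and so is not independent of them. Such a locus lay within 1 kb or overlapped at 20 of 101 pericentric loci (19.8%) and at 4063 of 5802 others (70.0%). Among loci with such a neighbour, 10 of 20 (interval 27.2% to 72.8%) and 2592 of 4063 (63.8%) overlapped it by exons, a difference that did not pass the test (odds ratio 0.568, interval 0.211 to 1.52, adjusted exact p = 0.274, among the comparisons added after the data were seen). The part of the lower number of loci per megabase in the lower overlap was not tested.

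The overlaps by exons formed 5 pairs. The longest, of 838 bp, joined lncRNA:CR43942 (4 spliced isoforms, plus strand, 3L from 23909130) and the unspliced G8251 on the minus strand. G8212 and G8213, both unnamed, shared 731 bp on 3L. On 2L the Tif-IA locus and G2662 (22122923 to 22123714) shared 705 bp. That overlap lay in the span of CG3651 and not in the Tif-IA gene, which starts at 22249876. G2648 and CG31693 shared 156 bp, and G8206 and BoYb 4 bp. A further 6 pairs overlapped by span without sharing exon bases. The Tif-IA locus took part in 4 of them. Its long intron held Clamp, Ir40a and RpL21 on the other strand, and G2663 lay outside that intron, at 22128264 to 22129859. Clamp encodes a zinc-finger protein of dosage compensation. In the other pairs, Parp1 held G8419 and l(3)80Fg held G8309.

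Isoforms per locus were fewer, with a median of 1 against 3. At least 2 isoforms were listed at 47 of 101 loci (46.5%, interval 36.5 to 56.7) against 4014 of 5802 (69.2%; odds ratio 0.388, adjusted exact p = 9.42e-06). The call did not hold on 2L alone, where 67.6% of loci had several isoforms against 69.7% (adjusted exact p = 0.852). It was also lost over named genes, of which 35 of 57 had several (61.4%) against 72.0% (adjusted exact p = 0.178). The richest loci were on 2L. The Tif-IA locus had 30 isoforms, of which 9 were named for Tif-IA. It also overlaps the spans of CG3651, CycK and CG42748. CG31601 with CG34173 had 22, and tio with Grl40a and lncRNA:CR33987 had 12. Cht10 followed with 10, lt and the AGO3 locus with 9 each, CG12567 and CkIIalpha with 8, and Clamp and l(3)80Fg with 7.

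Among the richest loci, Tif-IA, Clamp and CG12567 show what the isoforms shared. All 9 isoforms named for Tif-IA ended within 10 bp of the annotated 3' end and shared an intron of 3731 bp. Only 2 of them had a CDS, of 357 and 840 nt. Clamp had 7 exons in 6 isoforms and 5 in the other, and a CDS of 1422 to 1701 nt in all 7. In CG12567, 3 isoforms began at most 120 bp from the annotated start and crossed an intron of 11003 bp, while 4 began 10733 or 10736 bp inside the gene. These 7 shared a CDS of 681 nt, and the eighth carried 30 nt.

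Starts were set against the annotated 5' end in named genes. Naming itself needs isoforms that start or end within 200 bp of a gene end, so these genes were partly selected for such starts. An isoform began within 100 bp of it in 44 of 57 named genes (77.2%, interval 64.2 to 87.3) and in 4658 of 5792 others (80.4%). The odds ratio was 0.824 (interval 0.434 to 1.67, adjusted exact p = 0.506, among the comparisons added after the data were seen), and the interval holds differences in either direction. The farthest nearest start was that of lovit, a neuronal transporter gene, at 385147 bp inside its span. Marf1 followed with 45535 bp, Cht10 with 11031 bp and CG12768 with 9990 bp. Pzl, a Piezo-like channel gene with a span of 709421 bp, had 4 isoforms at its annotated 5' end. These covered at most 2718 bp, and its other 2 isoforms formed a separate short locus 387913 bp inside.

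A list of 20 symbols of heterochromatic genes with known roles gave 19 that RefSeq names and 17 inside the regions. Of the 17, 8 were named (RpL15, AGO3, vtd, Parp1, lt, cta, Gfat1 and Pzl) and 13 were overlapped by an isoform on either strand. RpL5, a gene of the large ribosomal subunit, lay under 3 isoforms of locus G2682 with a CDS of 900 nt in 2, but the gene's strand could not be set and the name was withheld. Set1, which encodes a histone H3 lysine 4 methyltransferase, lay under 1 isoform without a CDS, and nrm under 2. The span of Myo81F, a myosin heavy chain gene, measures 1965857 bp and held 7 isoforms, counted over both strands. None of them matched its ends or was named for it, and that of G8387 was named for lncRNA:CR46122. No isoform overlapped eIF4B, Dbp80, nvd or spok. The first 2 encode a translation initiation factor and an RNA helicase of nuclear export, and the last 2 encode enzymes of ecdysone synthesis.

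Loci outside all RefSeq genes were more frequent than elsewhere. No RefSeq gene span was touched by 21 of 101 pericentric loci (20.8%, interval 13.4 to 30.0) and by 182 of 5802 others (3.14%; odds ratio 8.10, interval 4.65 to 13.6, adjusted exact p = 3.41e-11, among the comparisons added after the data were seen). Of these 21, 13 were unspliced, 8 were spliced and 5 had a CDS. A further 26 loci touched a gene but received no name.

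The authors' numbering of loci has gaps, which were more frequent within the regions than elsewhere on the arms. Locus numbers within the regions ran over 292 values, of which 101 (34.6%, interval 29.1 to 40.4) are listed, against 5802 of 8751 (66.3%; odds ratio 0.269, adjusted exact p = 2.45e-26). On 2L 34 of 66 numbers are listed, and on 3L and 3R together 67 of 226. Within listed loci, 284 of 692 isoform numbers (41.0%) are present against 35.2% elsewhere. The part of the unlisted loci in the lower density, isoform number and antisense overlap was not tested.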

How the data were processed

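Iso-Seq transcripts of 4 testis samples (2 control, 2 kmg knockdown) were merged by the authors into 1 deposited annotation with positions of transcripts, exons and CDS parts. The deposited values are positions and reading frames, with no count. The submitters' processing notes name the builds BDGP6 and dm6. Aligner, merging and filtering settings: not given in the sources used here. Depth per sample is unknown.

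Introns, exon numbers, CDS lengths and overlaps were computed per isoform and collected per locus (Python 3.11.15, SciPy 1.17.1, NumPy 2.4.6, Matplotlib 3.10.9), after the steps were tested on simulated structures. RefSeq gene spans (Release 6 plus ISO1 MT) carry no strand here. Strand was therefore inferred where 80% of the isoforms ending or starting at most 200 bp from the corresponding gene end shared it. An isoform was then named for the same-strand gene that contained at least 50% of its span. Fisher's exact tests (two-sided) compared the shares, with the Benjamini-Hochberg method applied over 8 comparisons and separately over 9 added ones. Intervals are 95% exact binomial (Clopper-Pearson), and those of odds ratios are conditional exact.

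Genes named are the 10 loci with the longest introns, the 10 with most isoforms, the 5 with most exons, the 5 with the longest CDS, the 5 with the longest exonic antisense overlap and a list of 20 symbols. Other genes were named after their values were seen. Members, lists and comparisons were chosen with earlier results of these data known. Alternatives changed thresholds, region edges, the arm, the unit, isoform number and naming. No sequence is printed, since no genome or sequence table was used here.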

Additional observations from a re-analysis of the deposited data

How the results depend on the processing

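Values are pericentric minus remaining percentage points. Of 85 alternative values, 48 kept their direction and side of the threshold, 31 kept the direction but lost the call, 3 gained a call and 3 turned. Antisense overlap kept its call in 12 of 12 and a CDS in 9 of 10. Turned values were the spliced share on 2L (3.95) and in loci named for protein-coding genes (2.24, added after seeing the data), and genes with an isoform on 2L (6.42). That last measure gained a call on 3L (-19.0) and with edges moved 500 kb towards (-17.7) or away from the centromere (-9.08). Long introns lost the call at 1 kb (7.33), on 2L (16.7), 3L (13.8) and 3R (6.42) alone, and in loci with 2 or more isoforms (16.5). The spliced share lost it over RefSeq genes (-1.61) and in loci with 1 (-7.66) or several isoforms (-5.54). The share with 5 or more exons lost it at 3 (-9.89) and 10 exons (-6.23), with edges moved towards (-11.4) or away (-6.97), over RefSeq genes (-3.22), on 2L (-2.17) and 3R (-12.7), with 1 (-1.46) or several isoforms (-10.3) and in loci of protein-coding genes (-5.76). A CDS lost it on 2L (-14.2). A CDS of 1500 nt lost it at 3000 nt (-3.50), with edges moved away (-7.80), in spliced isoforms (-15.9), over RefSeq genes (-3.53), on 2L (-4.96) and 3R (-24.9), with 1 (-11.9) or several isoforms (-13.7) and in loci of protein-coding genes (-4.79). Several isoforms lost it over RefSeq genes (-10.6), on 2L (-2.06) and in loci of protein-coding genes (-9.68). Subsets hold fewer loci, and the cause of each lost call was not tested. No paired analysis was possible because the merged annotation carries no sample. Depth limits are unknown, since the annotation has no read number, and leaving out a replicate could not be done for the same reason.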

Other observations

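The low share of isoforms with a CDS was also seen near the centromere of 2R, outside the regions described above. Of 112 spliced isoforms that started in the first 5 Mb of 2R, 24 had a CDS (21.4%, 95% exact binomial interval 14.2 to 30.2). Between 5 and 6 Mb 88 of 133 did (66.2%, interval 57.5 to 74.1), and on the rest of that arm 6825 of 7237 (94.3%). On the X chromosome 3552 of 3702 spliced isoforms had a CDS (95.9%), and on the Y 1 of 8. These values were looked up after the pattern on 3L and 3R had been seen, and no test was made.

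Loci nested in an intron of another locus were counted as well. Of the 101 pericentric loci, 3 lay in an intron on their own strand (2.97%, against 2.62% of loci elsewhere) and 6 in one on the other strand (5.94% against 9.24%).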
